A study of Mus musculus with 19 samples.

Results

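Myeloid cells of the brain, chiefly microglia, carry a set of surface glycoproteins, tetraspanins, lysosomal membrane proteins and granule enzymes that mark them among neurons and glia. The 10 genes described here, Cd52, Cd53, Cd68, Cd9, Cd63, Laptm5, Lyz1, Lyz2, Slamf9 and Cd36, were chosen by name. They were chosen with earlier results of these data known. Each was read from the array probes whose transcript accession belongs to it in RefSeq, and all 10 had a probe and were tested, among 25597 genes in all. Of these 16100 had a gene symbol, and the others are array identifiers without one, each counted here as a gene. Hippocampal RNA of 19 mice was hybridised, 1 mouse to an array: 6 wild-type (WT) littermates given vehicle, 7 APP/PS1 mice given vehicle and 6 APP/PS1 mice given urolithin A. APP/PS1 is a transgenic line that carries mutant human APP and a mutant presenilin 1 under the mouse prion protein promoter and deposits amyloid plaques with age. Urolithin A, a gut-microbial product of ellagitannins that induces mitophagy, was given at 200 mg/kg per day by gavage in dimethyl sulfoxide (DMSO), from 6 to 8 months of age, and the other groups received DMSO alone in the same way. All mice were 8 months old at sampling. No group of urolithin A-treated WT mice was analysed here, so an effect of the compound can be read in the transgenic line only.

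Microglia and other macrophages take up particles and digest them in lysosomes, and the genes described here encode parts of that machinery or of the membrane around it. Cd52 encodes a short lipid-anchored glycopeptide of leukocytes, Slamf9 a receptor-like protein of the SLAM family, and Cd53, Cd9 and Cd63 tetraspanins, which organise other proteins in the membrane. Cd68 and Laptm5 encode membrane proteins of lysosomes, Lyz1 and Lyz2 the secreted enzyme lysozyme, which cleaves bacterial cell wall, and Cd36 a scavenger receptor for fatty acids and oxidised lipoproteins. Near amyloid plaques, microglia are known to raise phagocytic and lysosomal genes. Cd9, Cd63 and Cd36 are not restricted to myeloid cells, since endothelium, astrocytes, oligodendrocytes and epithelia can express them.

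Short promoter sequences are shown here for the members in which they bear on how the genes relate to one another. Windows of 250 bases before the annotated start were in the RefSeq table (GRCm38.p6) for 9 of the 10 genes. Cd52 had no entry. The first sequences are those of the lysozyme pair, adjacent genes on chromosome 10 that moved together below. Over the whole 250 bases, aligned with gaps, 205 of 260 positions were the same (78.8%). The last 150 bases before each start, chr10:117292869-117293018 for Lyz1 and chr10:117282273-117282422 for Lyz2, both on the minus strand, were the same at 129 positions (86.0%) and differed at the 21 shown in capitals.
Lyz1: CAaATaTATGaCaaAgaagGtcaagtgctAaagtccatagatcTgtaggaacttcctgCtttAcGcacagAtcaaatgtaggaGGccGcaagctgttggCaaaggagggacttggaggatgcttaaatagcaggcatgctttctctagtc
Lyz2: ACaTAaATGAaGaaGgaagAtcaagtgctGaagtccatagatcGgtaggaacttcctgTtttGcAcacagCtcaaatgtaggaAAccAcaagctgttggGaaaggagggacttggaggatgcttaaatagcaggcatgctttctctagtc
The pair are near-identical paralogs, so a probe for 1 of them may also have bound transcripts of the other, and the values of both are uncertain to that extent.

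Each window was also searched on both strands for GAGGAAG, the core bound by the myeloid factor PU.1. It was present in 3 of the 9 windows, against 10.6% of 32851 windows of the same length. The 3 matches, in capitals with the bases around them on the plus strand, lie at chr10:128909275-128909301 in Cd63, chr4:130913267-130913293 in Laptm5 and chr1:172475342-172475359 in Slamf9. All 3 of these windows lie inside the annotated span of the gene, before the start of a transcript that begins within it.
Cd63: tagacaagggCTTCCTCaaagggtttt
Laptm5: cagcctgtggCTTCCTCttttttgttc
Slamf9: aatgtgtacaGAGGAAGt
The letters TGANTCA, which the AP-1 factors bind, were in the window of Cd68 alone among the 9, against 6.75% of all windows, and CACGTG, the E-box of lysosomal gene control, in that of Slamf9 alone, against 6.02%. The Cd68 window, chr11:69666171-69666320 on the minus strand, holds TGANTCA at 2 places, shown in capitals.
Cd68: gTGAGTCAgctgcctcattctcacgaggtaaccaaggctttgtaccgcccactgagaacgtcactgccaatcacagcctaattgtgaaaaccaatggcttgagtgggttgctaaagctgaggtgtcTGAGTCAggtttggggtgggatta
A match describes these letters only, and none was tested as a binding site.

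The arrays held 62976 spots, and between 51.4% and 59.3% of probes were well above background on each. A level is the log2 processed green signal minus that array's 75th percentile, which lay between 664 and 1776 intensity units. Each probe binds with its own strength, so levels are compared between groups and never between genes. Prnp, whose promoter the transgenes use, is read here as a check of the genotype. Whether the transgene transcripts hold the bases that its probe binds was not examined. Prnp averaged 6.38 ± 0.12 (SD, n = 6) over the WT mice. It averaged 8.06 ± 0.15 (SD, n = 7) with the transgenes and vehicle and 8.04 ± 0.23 (SD, n = 6) with the transgenes and urolithin A, and no APP/PS1 array fell below any WT array. Neuronal, astrocyte and oligodendrocyte markers were well above background on every array, except Gfap on 1 WT array. The arrays came from 3 slides that did not hold the groups evenly: slide 1 held all 6 WT and 2 APP/PS1 vehicle arrays, slide 2 the other 5 vehicle and 3 urolithin A arrays, and slide 3 the last 3 urolithin A arrays. Sex, read from Xist and Y-linked transcripts, was also uneven, with 5 males and 1 female in WT, 4 and 3 in APP/PS1 vehicle, and 5 and 1 in APP/PS1 urolithin A. Transcripts of choroid plexus, the epithelium beside the hippocampus, varied widely between arrays, as given beside Cd9 and Cd63.

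Comparing APP/PS1 vehicle with WT vehicle sets the amyloid genotype against WT without the compound. Slide, sex and choroid plexus signal also differed between these 2 groups, so the differences are not those of genotype alone. Of the 10 genes, 9 rose (limma, Benjamini-Hochberg adjusted p below 0.05) and none fell, against 2.86% of all tested genes called higher, 2.18% called lower and 5.04% called either way. The rises ran from 1.5-fold for Cd63 to 4.06-fold for Cd52. The median log2 difference over the 10 was 0.82, against 0.013 over all genes. In 7 of the 10 every APP/PS1 vehicle array lay above every WT array, a separation in either direction seen in 2.32% of all genes. Because the genes were chosen with earlier results of these data known, these contrasts with all genes are descriptive and not independent support. Cd36 alone was not called. In bulk tissue, more cells of a type and more RNA per cell cannot be told apart.

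**Figure D1:**
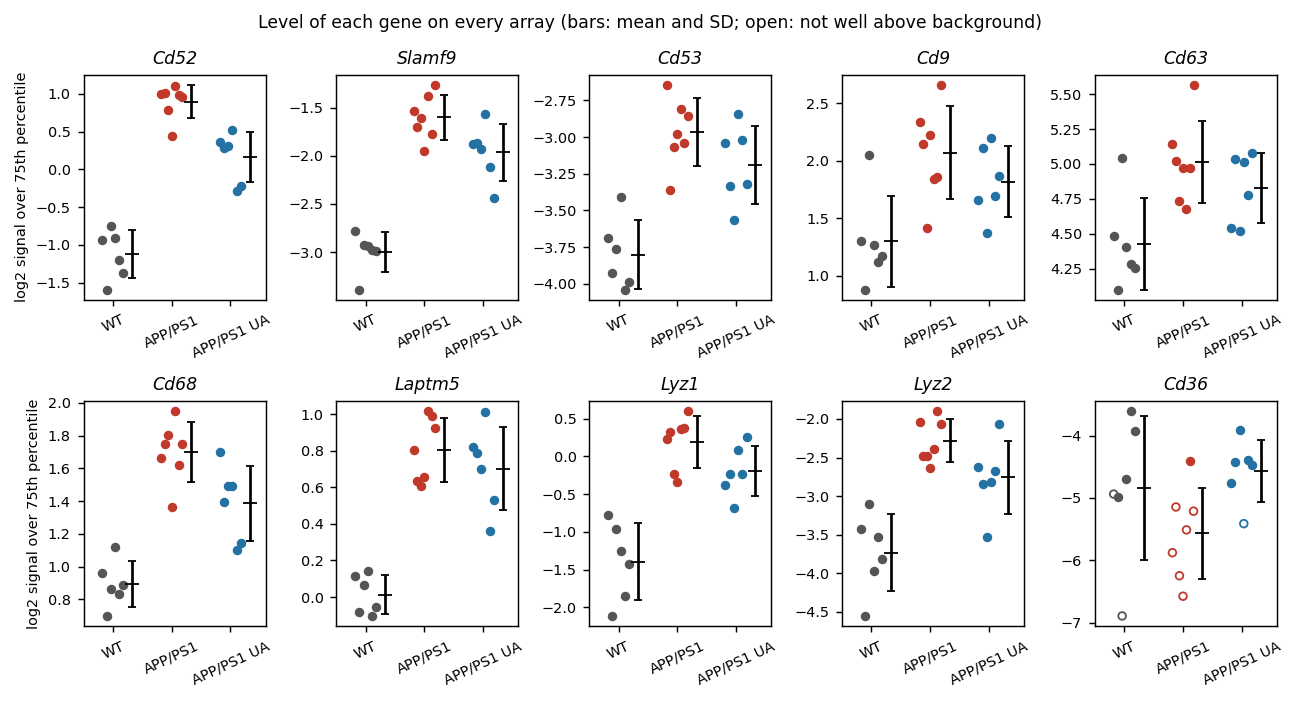
Level of each gene (log2 processed signal over the array's 75th percentile, vertical axes differ between panels) on every array of WT vehicle, APP/PS1 vehicle and APP/PS1 urolithin A (UA) mice. Points are arrays, bars the mean and SD, and open points were not well above background. In 7 panels no red point overlaps the grey ones, and in Cd36 most red points are open.

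Cd52 had the largest rise of the 10. In WT mice its level ran from -1.59 to -0.76 with a median of -1.07. APP/PS1 vehicle mice ran from 0.44 to 1.10 with a median of 0.98, and urolithin A mice from -0.28 to 0.52 with a median of 0.29. The 2 transgenic groups were above WT on every array, with more than 1 log2 unit between the vehicle group and WT at their nearest. The difference of APP/PS1 vehicle over WT was 2.02 (SE 0.16, 95% interval 1.69 to 2.35, adjusted p = 4.64e-07).

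Slamf9 showed the second largest separation by p among the members. Its WT levels lay between -3.39 and -2.79 (median -2.96), those of APP/PS1 vehicle between -1.95 and -1.26 (median -1.60) and those of urolithin A between -2.44 and -1.57 (median -1.90). No WT array reached any transgenic array. The rise was 2.64-fold (log2 difference 1.40, SE 0.13, adjusted p = 7.08e-06).

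Cd53, a tetraspanin found across leukocytes, rose too. Its WT levels were -4.04 to -3.41 (median -3.84), vehicle levels -3.36 to -2.64 (median -2.98) and urolithin A levels -3.57 to -2.84 (median -3.18). Vehicle and WT just failed to meet, while the urolithin A range began below the highest WT array. The rise in vehicle mice was 1.79-fold (log2 difference 0.84, SE 0.13, adjusted p = 0.00145).

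Cd9 and Cd63, the tetraspanins with the broadest expression, rose less clearly. Cd9 was at 0.88 to 2.05 in WT (median 1.22), 1.42 to 2.66 in APP/PS1 vehicle (median 2.15) and 1.37 to 2.20 in urolithin A mice (median 1.78). Cd63 was at 4.10 to 5.04 in WT (median 4.35), 4.68 to 5.57 in vehicle (median 4.97) and 4.52 to 5.08 in urolithin A mice (median 4.89). All 3 groups overlapped for both genes, because WT replicate 3 was far above the other 5 WT arrays in each. The differences of vehicle over WT were 0.77 for Cd9 (SE 0.20, adjusted p = 0.0354) and 0.58 for Cd63 (SE 0.16, adjusted p = 0.0414). Both calls were marginal: Cd63 passed without WT replicate 3 (adjusted p = 0.00841) or vehicle replicate 3 (0.0333) or 5 (0.0243) and missed the threshold without any of the other 10 arrays (0.0553 to 0.103). Cd9 passed without WT replicate 3 (adjusted p = 0.00735) or vehicle replicate 3 (0.0140), 5 (0.0273) or 6 (0.0491) and missed it without any of the other 9 (0.0522 to 0.0907). Cd63 was spotted 10 times on each array, and those spots differed by an SD of 0.061 at the median array, against an SD of 0.25 to 0.33 between arrays of a group; the second also holds the variation between mice.

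The same 2 genes followed the choroid plexus transcripts. The mean level of 12 choroid plexus genes ran from -2.50 to 2.73 in WT, where replicate 3 alone was high, from -4.52 to 3.36 in APP/PS1 vehicle and from -2.81 to 2.81 in urolithin A mice. All 12 were above 0 in APP/PS1 vehicle against WT, with a median difference of 1.71 and none called. Across the 19 arrays the level of Cd9 correlated with that mean at r = 0.81 and that of Cd63 also at 0.81, and with the group means taken out at 0.85 for each. For Lyz1 and Lyz2 r was 0.54 and 0.53, and 0.53 and 0.49 with group means out. For Cd53 (0.38), Laptm5 (0.35), Cd52 (0.32), Slamf9 (0.30) and Cd36 (-0.22) it was lower, and with group means out it lay between -0.20 and 0.19 for these 5. Cd68 had r = 0.085, but -0.48 with group means out, so within groups its level was lower where choroid plexus signal was higher. Arrays of a group share its treatment and genotype, so these values only describe the 19 arrays, and the part of choroid plexus in the 2 rises was not tested beyond the fit that follows. With the choroid plexus mean as a covariate the rise was 0.53 for Cd9 (SE 0.12, adjusted p = 0.0177) and 0.40 for Cd63 (SE 0.097, adjusted p = 0.0259), and that of Cd52 was 2.01 (SE 0.17, adjusted p = 2.46e-06).

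**Figure D2:**
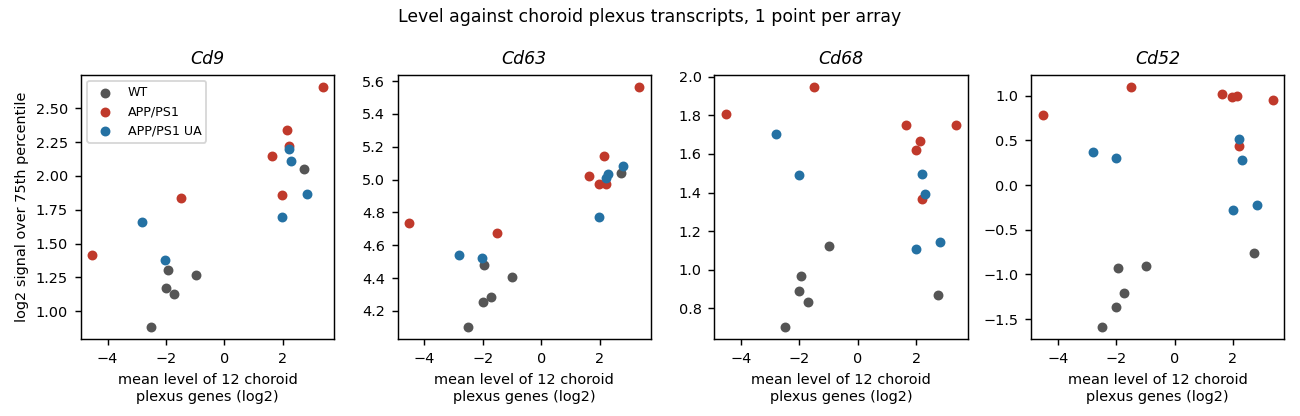
Level of Cd9, Cd63, Cd68 and Cd52 (vertical axes, log2) against the mean level of 12 choroid plexus genes (horizontal axes, log2), 1 point per array, coloured by group. Cd9 and Cd63 rise along the axis (r = 0.81 each). For Cd68 (r = 0.085) and Cd52 (r = 0.32) every APP/PS1 vehicle array lies above every WT array. Urolithin A arrays overlap those of vehicle in both, and those of WT for Cd68.

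Both lysosomal membrane genes were higher on every APP/PS1 vehicle array than on any WT array. Cd68, the standard marker of phagocytic microglia, lay between 0.70 and 1.12 in WT (median 0.88), 1.37 and 1.95 in APP/PS1 vehicle (median 1.75) and 1.10 and 1.70 in urolithin A mice (median 1.44). The lowest urolithin A array was just under the highest WT array, and the vehicle arrays were all above WT. The rise was 1.75-fold (log2 difference 0.81, SE 0.11, adjusted p = 0.000212), and a second, dimmer Cd68 probe gave 0.94.

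Laptm5 had the tightest WT group. Its WT levels spanned only -0.10 to 0.14 (median 0.0041), against 0.61 to 1.02 in vehicle (median 0.80) and 0.36 to 1.01 in urolithin A mice (median 0.74). Neither transgenic group touched WT, and the urolithin A range reached lower than that of vehicle. The difference in vehicle mice was 0.79 (SE 0.10, adjusted p = 0.000150).

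The lysozyme genes, whose promoters are printed above, rose side by side. Lyz1 was at -2.11 to -0.78 in WT (median -1.33), -0.33 to 0.60 in APP/PS1 vehicle (median 0.33) and -0.68 to 0.26 in urolithin A mice (median -0.23). Lyz2 was at -4.55 to -3.11 in WT (median -3.67), -2.63 to -1.90 in vehicle (median -2.38) and -3.53 to -2.06 in urolithin A mice (median -2.74). Vehicle mice were above every WT mouse for both probes. The rises were 3.0-fold for Lyz1 (log2 difference 1.59, SE 0.21, adjusted p = 0.000273) and 2.73-fold for Lyz2 (1.45, SE 0.22, adjusted p = 0.00114). With normexp background correction the difference of Lyz2 was 0.76 (SE 0.12), and those of Cd53 and Slamf9 were 0.47 (SE 0.072) and 0.90 (SE 0.091), all 3 over 1.5 times smaller and still called.

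Cd36 was the member whose probe was not above background on all arrays, and its difference was the only one below 0. It cleared background on 4 of 6 arrays in WT mice, 1 of 7 in vehicle-treated APP/PS1 mice and 5 of 6 in those given urolithin A, so most vehicle values lie at the floor of what the array reads. Its level ran from -6.89 to -3.61 in WT (median -4.82), -6.58 to -4.41 in vehicle (median -5.51) and -5.41 to -3.91 in urolithin A mice (median -4.45). The groups overlapped, and the widest spread was within WT. The difference of vehicle from WT was -0.73 (SE 0.44, 95% interval -1.64 to 0.19, adjusted p = 0.312).

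**Figure D3:**
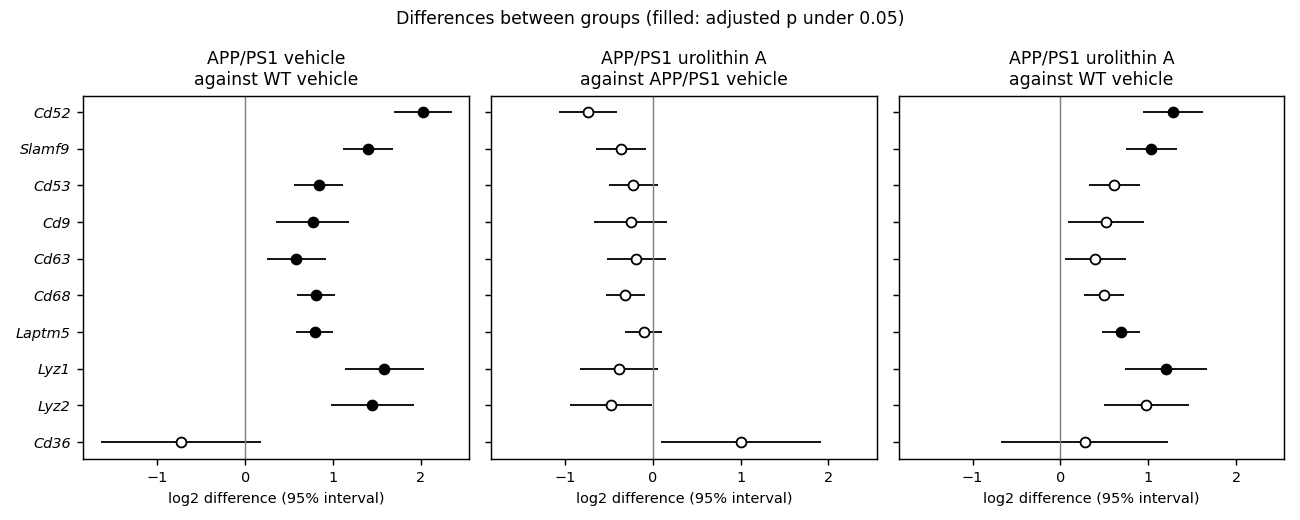
Log2 difference of each gene in the 3 comparisons, with 95% intervals from the limma fit on 19 arrays. Filled points have an adjusted p below 0.05. In the left panel 9 are filled, in the middle none and in the right 4, and the points of the middle panel lie below 0 except that of Cd36.

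The comparison of urolithin A with vehicle within APP/PS1 mice asks whether the compound altered these genes. None of the 10 was called, and neither was any of the 25597 genes (0% called, smallest adjusted p 0.0993), although 3962 genes had an unadjusted p below 0.05 in limma, 5 of the 10 members had one, and normexp background correction on spot medians called 1691. Of the 10 differences, 9 were below 0 and 1 above it, with a median of -0.28 against -0.0060 over all genes. No member separated the groups completely, a separation in either direction seen in 0.848% of all genes. Markers of cells moved alongside, in directions that differed between lists and without any call. Homeostatic microglial markers were below 0 in 9 of 12 (median -0.21) and plaque-associated ones in 10 of 13 (median -0.25). Neutrophil markers were below 0 in 5 of 6 (median -0.30), monocyte markers in 4 of 5 (median -0.11) and lymphocyte markers in 4 of 6 (median -0.13). Those of perivascular and border macrophages were above 0 in 7 of 9 (median 0.28), and those of meninges and fibroblasts in 7 of 9 (median 0.26). Neuronal markers were above 0 in 8 of 8 (median 0.16), and oligodendrocyte markers below 0 in 8 of 8 (median -0.20). Their part in these differences was not tested.

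Cd52 had the largest negative difference. At -0.74 (SE 0.16, 95% interval -1.06 to -0.41, adjusted p = 0.0993), it was lower than the vehicle mean on all 6 urolithin A arrays, and overlapped only through vehicle replicate 4 at 0.44 and urolithin A replicate 4 at 0.52. With normexp background correction the difference was -0.64 and passed (adjusted p = 0.0269), a setting under which 6.61% of all genes were called, 6% lower and 0.602% higher. Within slide 2, the 1 slide that held both groups, it was -0.54 (SE 0.16, adjusted p = 0.902).

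The other negative differences were smaller and none passed. Cd68 stood at -0.31 (SE 0.11, adjusted p = 0.193), and its second probe at -0.40 (adjusted p = 0.177). Slamf9 stood at -0.36 (SE 0.13, adjusted p = 0.217) and Lyz2 at -0.47 (SE 0.22, adjusted p = 0.317). Each of these 3 genes was above the vehicle mean on 1 of 6 urolithin A arrays. Lyz1 (-0.39, 95% interval -0.83 to 0.061) and Cd53 (-0.22, -0.50 to 0.054) had intervals that reached 0. So had Cd9 (-0.25, -0.67 to 0.17), Cd63 (-0.19, -0.52 to 0.14) and Laptm5 (-0.10, -0.31 to 0.11). The interval of Laptm5 leaves room for a decrease of at most 0.31, less than its genotype difference of 0.79. Cd36 was higher on all 6 urolithin A arrays than the vehicle mean, at 1.0 (SE 0.44, adjusted p = 0.280), with the vehicle mean itself mostly at background.

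Setting urolithin A-treated APP/PS1 mice against WT vehicle asks how far the transgenic mice given the compound stood from WT. It shares the WT arrays with the first comparison and the urolithin A arrays with the second, so the 3 are not independent. Cd52, Slamf9, Laptm5 and Lyz1 rose, 4 of 10, against 0.0899% of all genes called, all of them higher. The same 4 separated the groups completely, as 1.04% of all genes did. Here too the choice of genes with earlier results known leaves these contrasts descriptive. All 10 differences were above 0, and their median was 0.65.

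Cd52 was higher by 1.29 (SE 0.16, adjusted p = 0.000826), Slamf9 by 1.03 (SE 0.14, adjusted p = 0.00155) and Laptm5 by 0.69 (SE 0.10, adjusted p = 0.00562). Lyz1 was higher by 1.20 (SE 0.22, adjusted p = 0.0389). That last call was lost without any of 9 of the 12 arrays (adjusted p 0.0507 to 0.143) and held without WT replicate 1 (0.0171), WT replicate 3 (0.0339) or urolithin A replicate 3 (0.0322). It was also lost with the choroid plexus mean as a covariate (1.04, adjusted p = 0.0675), with normexp (0.0570), with z-scores (0.0531), on the deposited values (0.0852) and without the filter on dim probes (0.0957). Cd68 at 0.49 (adjusted p = 0.0974), Cd53 at 0.61 (0.105) and Lyz2 at 0.98 (0.132) missed the threshold. Cd9 (0.52), Cd63 (0.40) and Cd36 (0.27) had adjusted p-values from 0.514 to 0.893. In the order of their means, 9 genes ran from WT through urolithin A to vehicle, and the upper neighbours of that order, urolithin A and vehicle, did not differ past the threshold in any.

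Slide touched these comparisons to different degrees. Within slide 1, where 2 vehicle arrays stood beside the 6 WT arrays, Cd52 was higher by 2.13 (SE 0.22, adjusted p = 0.0183) and Slamf9 by 1.38 (SE 0.15, adjusted p = 0.0281). The other 7 genes that rose had differences of 0.65 (Cd63) to 1.67 (Lyz1) there, close to those over all arrays, with adjusted p-values of 0.0647 to 0.185. With slide as a fixed block over all 19 arrays, the difference is again that within slide 1, and only its spread is estimated from all arrays. Cd68 (0.81, adjusted p = 0.0245) and Lyz1 (1.67, adjusted p = 0.0276) then passed as well, so 4 of the 9 calls held. WT and urolithin A arrays shared no slide, and their difference with that block rests on the vehicle arrays: Cd52 was then at 1.59 (SE 0.31, adjusted p = 0.236) and none of the 10 passed. Of all genes, 4 were called then, against 23 without a block. With slide as a random block 9 and 7 members passed in these 2 comparisons. In urolithin A against WT, 108 of all genes were called with that random block. In APP/PS1 vehicle against WT, 22 to 2172 of all genes were called over the 16 alternatives other than leaving out 1 array. The total with the fixed block is given in the closing section.

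Sex moved with the groups too, and among male arrays alone (5 WT, 4 vehicle, 5 urolithin A) 5 of the 9 calls held. Those were Cd52 (1.89, adjusted p = 0.00103), Slamf9 (1.31, 0.00412), Cd68 (0.75, 0.0159), Laptm5 (0.65, 0.0261) and Lyz1 (1.39, 0.0378). Cd53, Lyz2, Cd9 and Cd63 kept their direction at 0.75, 1.31, 0.71 and 0.51. Of the 4 calls in urolithin A mice against WT none held in males, with adjusted p-values of 0.0515 for Slamf9, 0.0770 for Cd52, 0.0976 for Laptm5 and 0.262 for Lyz1. Their differences there were 1.02, 1.20, 0.65 and 1.23. Of all genes, 8 were called in males in that comparison, against 23 on all arrays. The total in males for APP/PS1 vehicle against WT is given in the closing section. With sex as a covariate on all arrays the 9 calls and the 4 against WT in urolithin A mice were kept.

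**Figure D4:**
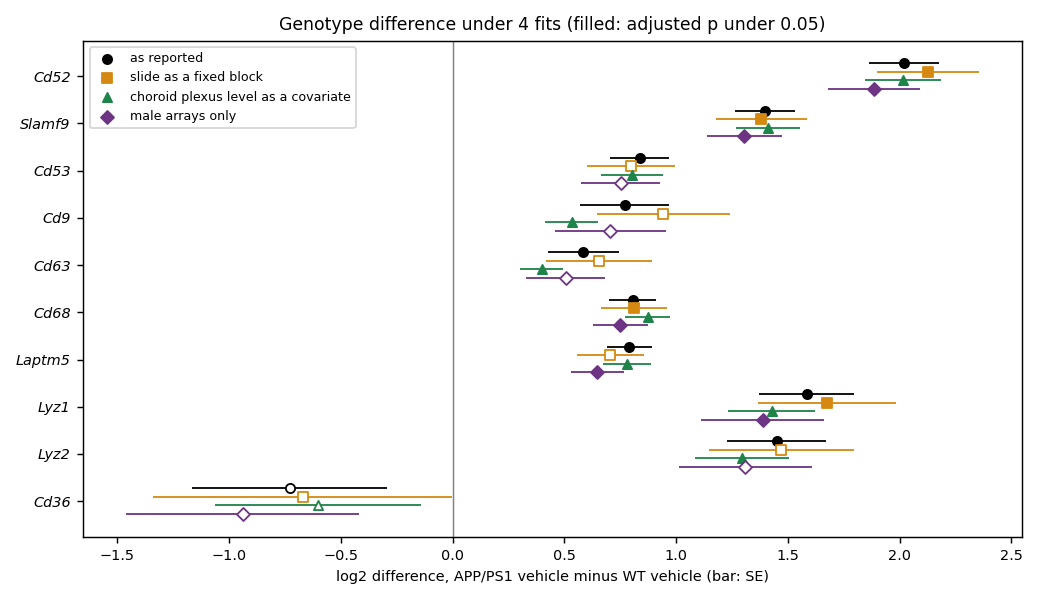
Log2 difference of APP/PS1 vehicle over WT vehicle for each gene under 4 fits, with bars of 1 SE and filled symbols for an adjusted p below 0.05. With slide as a fixed block the difference is that within slide 1. The differences of Cd52, Slamf9, Cd68 and Lyz1 are filled in all 4 fits, and those of Cd9 and Cd63 lie nearer 0 with the choroid plexus mean as a covariate (0.53 and 0.40).

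The members differed in which other genes they followed over the 19 arrays. By the highest Pearson r among all genes with a symbol, Cd52 lay nearest to Bcl2a1d (0.99), an anti-apoptotic gene of myeloid cells, then Trem2 (0.98), a microglial lipid receptor, and Fcer1g (0.98), the Fc receptor gamma chain. Slamf9 lay nearest to Trem2 (0.97), Cd52 (0.97) and Bcl2a1d (0.97), and Cd68 to Tyrobp (0.97), the signalling partner of Trem2, Trem2 (0.96) and Cd52 (0.96). With group means taken out, r was 0.84, 0.82 and 0.92 for the 3 neighbours of Cd52. It was 0.79, 0.78 and 0.72 for those of Slamf9, and 0.87, 0.84 and 0.78 for those of Cd68. Among the genes nearest to Laptm5 were Tbxas1 (0.96) and the integrin gene Itgax (0.96), at 0.83 and 0.80 with group means out.

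Cd53 was nearest to Cd14 (0.90), Bcl2a1d (0.89) and the astrocyte water channel gene Aqp4 (0.89), but these fell to 0.65, 0.52 and 0.68 with group means out. Lyz2 was nearest to Lyz1 (0.92), Cd86 (0.92) and Wfdc17 (0.92), and Lyz1 to the cathepsin gene Ctsh (0.94), Wfdc17 (0.94) and Aspg (0.93). With group means out these were 0.73, 0.75 and 0.69 for Lyz2 and 0.76, 0.78 and 0.66 for Lyz1. Cd9 had Apobec1 (0.97), Syngr2 (0.96) and Ctsl (0.96) nearest, and Cd63 had Tmem37 (0.98), Pdpn (0.98) and Slc37a2 (0.97). Without group means these were 0.94, 0.97 and 0.94 for Cd9 and 0.99, 0.96 and 0.96 for Cd63. Cd9 and Cd63 themselves correlated at 0.95, and at 0.91 with group means taken out. For Cd63 and its first neighbour r was 0.99 with group means out, whereas for Cd52 and Bcl2a1d it fell to 0.84 from 0.99. Cd36 had Abca6 (0.84), Psen2 (0.83) and Tmem74 (0.81) nearest, none of them a member, and with group means out 0.81, 0.79 and 0.75.

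The families around these genes moved unevenly in APP/PS1 vehicle against WT. Without the members themselves, 8 of 17 leukocyte surface genes rose and none fell, with a median of 0.36. They included Cd86, a costimulatory ligand (0.78, SE 0.088, adjusted p = 4.06e-05), Cd14, the endotoxin co-receptor (0.89, SE 0.11, adjusted p = 6.27e-05), and Ptprc, the pan-leukocyte phosphatase CD45 (1.20, SE 0.18, adjusted p = 0.00116). Of 4 other SLAM family and adaptor genes that passed the filter on dim probes, 2 rose: Cd48 (0.91, SE 0.10, adjusted p = 4.40e-05) and Cd84 (0.61, SE 0.17, adjusted p = 0.0448). The list holds 11 genes, and 6 were too dim to test.

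The tetraspanin and lysosome lists stood closer to no change. Of 20 tetraspanins beside Cd53, Cd9 and Cd63, only Cd37, another leukocyte tetraspanin, rose (0.50, SE 0.12, adjusted p = 0.0272), with a median of 0.055. Of 14 lysosome membrane genes beside the members, only Slc11a1, a metal transporter of phagocyte lysosomes, rose (0.84, SE 0.093, adjusted p = 3.70e-05), with a median of -0.055. Among 11 further granule genes, with a median of 0.13, only Srgn, the granule proteoglycan serglycin, rose (0.58, SE 0.11, adjusted p = 0.00645). Of 10 scavenger receptors beside Cd36, only Cxcl16 rose (1.14, SE 0.21, adjusted p = 0.00442), though their median was higher, at 0.28. None in these lists fell.

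Among 11 myeloid transcription factor genes, Irf8 (0.86, SE 0.093, adjusted p = 2.86e-05), needed for microglial development, and Irf5 (0.51, SE 0.11, adjusted p = 0.0189) rose and none fell. In urolithin A-treated mice against WT, Irf8 (0.54, adjusted p = 0.0355) was the only non-member of these 7 lists that passed. Against APP/PS1 vehicle none passed. The values of smallest p per list there were -0.38 for Cd48 (adjusted p = 0.140), -0.38 for Cd86 (0.10), -0.35 for Slc11a1 (0.132), -0.34 for Lcn2 (0.265), -0.32 for Irf8 (0.150), -0.23 for Lrp1 (0.310) and 0.25 for Tspan13 (0.220).

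Markers of the cells that could carry the members changed as follows in APP/PS1 vehicle against WT. Homeostatic microglial markers rose in 6 of 12 (median 0.49), plaque-associated ones in 7 of 13 (median 0.42), and astrocyte markers in 3 of 8 (median 0.28). None of the 10 genes described here was in a marker list. None was called among 9 markers of perivascular and border macrophages, 5 of monocytes, 6 of neutrophils, 6 of lymphocytes, 10 of endothelium, 8 of oligodendrocytes or 8 of neurons. All 8 neuronal markers were below 0, with a median of -0.28. Neutrophil markers had a summed signal of 0.647 to 1.54 times the array's 75th percentile in WT and 0.727 to 2.40 in vehicle, with 3 to 7 of 10 above background on an array. Perivascular and border macrophage markers summed to 1.55 to 2.81 in WT and 1.89 to 3.50 in vehicle. Monocyte markers summed to 8.44 to 12.4 in WT and 10.1 to 12.4 in vehicle, and those of homeostatic microglia to 76.7 to 102 and 88.8 to 147. A sum depends on which probes a list holds, so sums are compared between groups and not between cell types. The part that each cell type had in the rise of the members was not tested.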

How the data were processed

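Total RNA (200 ng per mouse) from hippocampus was labelled with Cy3 and hybridised to Agilent mouse arrays, per the labels' protocols. The deposited scanner files hold intensities per spot for 2 channels, with background flags, from Agilent Feature Extraction 12.0.3.1, per the file headers. The labels describe a sample for Cy3 (green) only, so red was not used. The deposited value table holds scores: each array's log10 processed green signal, standardised within the array (gap to that at most 0.005), with column medians of -0.28 to -0.17 and no stated scale.

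From the processed green intensities, control spots were left out and each array's 75th percentile was subtracted on the log2 scale. Spots of a probe were averaged, probes well above background on fewer than 6 of 19 arrays were dropped (33446 of 56605 stayed), and the brightest probe stood for its gene. RefSeq tables (GRCm38.p6) gave a symbol for 32994 probes. All 19 arrays of 3 groups were fitted in limma 3.58.1 (R 4.3.3), with p-values adjusted by Benjamini-Hochberg over 25597 genes and a call at 0.05. The fit was checked on simulated data.

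The members, the gene lists and the tests were chosen with earlier results of these data known. Named genes are all members, for each list up to 4 other genes that passed (otherwise the 1 of smallest p), Prnp, and the 3 genes most like each member, of which 1 is not reported here. Each array is 1 mouse, and precision is set by how many arrays a group has. Replicate numbers are treated as unpaired: over 18 pairs of arrays with the same number, deviations from the group means correlated at -0.54 to 0.39, and 8 pairs passed 0.1. Alternatives covered background correction, scaling, the dim-probe filter, probe choice, slide, sex, choroid plexus signal, samples in the fit, and leaving out each array.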

Additional observations from a re-analysis of the deposited data

Results flagged for a closer look

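Cd9 was far higher on 1 WT array than on the rest: WT replicate 3 was at 2.05, and the next WT array at 1.30. The same array had the highest choroid plexus mean of the WT group (2.73). Slamf9 was far lower on 1 WT array, replicate 2 at -3.39, with the next at -2.98, and the APP/PS1 vehicle difference was called with every array left out in turn. Over 33 groups of arrays checked for such a sample these were the 2 found, and chance alone gives about 1 in 20.

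The probes of all 10 genes were well above background in the red channel on all 19 arrays, including Cd36, whose green signal was so on 10 arrays. Signals of the 2 channels correlated at 0.879 to 0.894 on the same array. The labels name no red sample, and its content was not analysed here.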

How the results depend on the processing

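Slide limits the comparisons, since WT and urolithin A arrays shared none, and 2 vehicle arrays alone stood beside WT. The number called in APP/PS1 vehicle against WT was 9, 4 with slide as a fixed block, 2 within slide 1, 5 in males, and 7 to 9 without 1 array. In urolithin A against vehicle it was 0, 0 without any 1 array, and 1 with normexp on spot medians. In urolithin A against WT it was 4, 0 with the fixed slide block, 7 with the random one, 0 in males, and 3 to 4 without 1 array. Of all genes in that comparison 23 were called, and 4, 108, 8 and 16 to 37 in those settings. The cause of these changes was not tested, though the slide 1 and male fits hold fewer arrays. With the replicate block the counts were 7, 0 and 2 and the genes called in the first comparison fell from 1289 to 332. The pairing is not borne out by the arrays.

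Differences that changed sign were never called: Cd36 with normexp (-0.068 against vehicle and -0.070 against WT) and without WT replicate 3 (-0.14 against WT, where the range without 1 array was -0.14 to 0.52), and Laptm5 in males (0.0014 in urolithin A against vehicle). In APP/PS1 vehicle against WT, Cd52 and Slamf9 were called in all 29 alternatives, Cd9 in 13 and Cd63 in 10. Genes called in that comparison ranged from 403 (without WT replicate 6) to 2194 (without WT replicate 3), over 1.5 times from 1289 without any 1 array other than WT replicate 1 and vehicle replicates 3 and 4. They were 77 with the fixed slide block, 22 within slide 1 and 228 in males. On the deposited scale 795 were called, 40.3% of them higher against 56.8% here, and without the filter on dim probes 373, 83.9% higher. That filter's removal moved the median of all genes to 0.10 from 0.013. The planned normexp on spot means was not run, since the files give medians, and the one on medians was chosen after seeing the data.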
